A study of Rattus norvegicus with 6 samples.

Results

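T cell nuclei of rat colon were compared between PL8177 rats and sham rats. The members were all 216 nuclei that the authors assigned to T cells in these treatments, 96 from PL8177 and 120 from sham, out of 6039 nuclei of T cells and enterocytes in the same libraries, and all 17388 gene rows were read. All rats were wildtype male Wistar rats. PL8177 rats drank 5% dextran sulfate sodium (DSS), a salt that damages the colon lining, over 3 days and later took 50 µg PL8177 in capsules by gavage, 2 times a day for 4 days. Sham rats had water alone, without DSS and without capsules, so DSS and drug cannot be told apart in this comparison. The placebo rats, which had DSS and empty capsules, were not used here. Nuclei carried 6 library tags, GR12, GR13 and GR15 in sham and GR41, GR43 and GR44 in PL8177. Each tag was taken as the library of 1 rat. No label names single rats, so values per library depend on this reading, and p-values measure the spread between these libraries.

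T cells of the colon lie in the lamina propria and between the epithelial cells, where they answer luminal antigens through the T cell receptor. PL8177 is an agonist of the melanocortin 1 receptor, a receptor that raises cyclic AMP in the cell and is known for anti-inflammatory effects in immune cells. Nuclear RNA consists largely of nuclear transcripts, introns included, so transcripts made inside mitochondria are expected at low levels in clean nuclei.

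T cell nuclei numbered 74, 19 and 27 in sham GR12, GR13 and GR15 and 22, 39 and 35 in PL8177 GR41, GR43 and GR44. They held 241194, 8307 and 26948 unique molecular identifiers (UMIs, each counted as 1 captured RNA molecule) in sham and 24860, 62320 and 21207 in PL8177. GR12 stood apart, with 87.2% of the sham UMIs and a median of 2142.5 UMIs per nucleus against 375 to 1020 in the other 5 libraries. Fold changes that moved by much without GR12 are therefore given with and without it. No barcode was shared between the T cell nuclei of different libraries, and 2 of 6037 barcodes recurred among T cell and enterocyte nuclei together. Levels are UMIs of a gene per 10000 UMIs of a library, and 1 UMI is a level of 0.0415 in GR12 but 1.20 in GR13. Genes were tested with edgeR's quasi-likelihood test on UMIs summed per library, with p-values adjusted by Benjamini-Hochberg, and a gene was called at an adjusted p below 0.05 with an absolute log2 fold change above 1.5.

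The T cell label was checked against 13 markers, among them Cd3e and Cd247 of the T cell receptor complex, Themis and Skap1 of receptor signalling, and Ptprc, the phosphatase CD45 of all leukocytes. Their summed level was 56.7, 30.1 and 31.2 in the sham libraries and 31.8, 23.8 and 35.4 in the PL8177 libraries. Enterocyte nuclei of the same libraries held 0.143 to 0.522, so the T cell nuclei stood far above them in every library. The authors named the clusters by canonical marker genes, so this gap follows in part from the labelling. Sham and PL8177 T cell nuclei overlapped. Cd3e, which defines the lineage, had 23 UMIs in GR12 and 4 in GR44 and was at 0 in the other 4 libraries. Of 120 sham nuclei 96 held a UMI of the T cell list, as did 71 of 96 PL8177 nuclei, from 68.2% in GR41 to 86.5% in GR12.

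The T cell nuclei also held epithelial RNA. The 23 measured enterocyte markers summed to a level of 33.1, 102 and 64.9 in sham and 68.0, 85.7 and 112 in PL8177 T cell nuclei, against 266 to 465 in enterocyte nuclei. GR12 was the lowest and the groups overlapped. UMIs of both marker lists occurred together in 81 sham and 58 PL8177 nuclei. A stricter set, called T cell marker nuclei here, held at least 1 UMI of the T cell list and no more UMIs of the enterocyte list than of the T cell list. It had 72 sham and 43 PL8177 nuclei, from 35.9% of the nuclei in GR43 to 67.6% in GR12. Since enterocyte marker UMIs enter this choice, levels of those markers in the set are not read as results. No doublet caller was run on so few nuclei, and no source used here says that doublets were removed. Whether a nucleus with both kinds of RNA was a doublet, a nucleus with free RNA or a differently assigned nucleus was not tested.

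**Figure D1:**
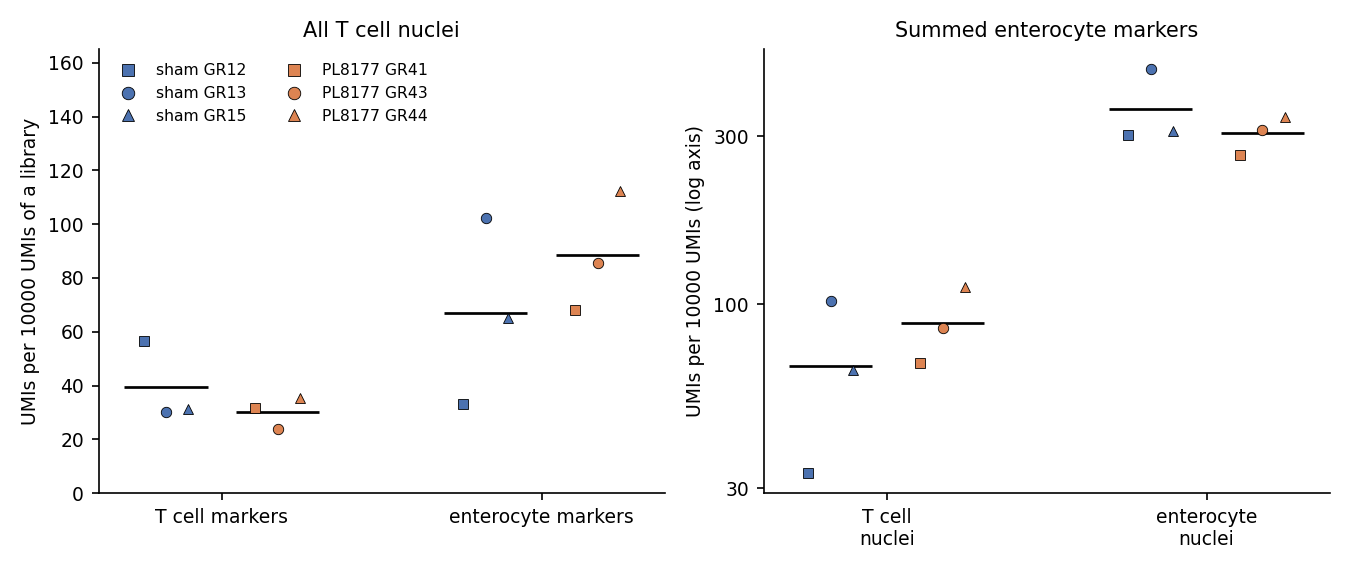
Summed marker levels by library, in UMIs per 10000 UMIs; points are libraries, blue sham and orange PL8177, and black lines are means over 3 libraries. At left, T cell and enterocyte markers in all T cell nuclei overlap between the groups. At right, on a log axis, enterocyte markers run from 33.1 to 112 in T cell nuclei and from 266 to 465 in enterocyte nuclei.

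Markers of other cells were also counted. B and plasma cell markers summed to 7.38, 0 and 1.85 in sham and 2.82, 0.481 and 0.471 in PL8177, with GR12 highest and 2 and 7 of the 12 markers at 0 in sham and PL8177. Macrophage and dendritic cell markers lay between 6.02 and 8.87 in sham and between 4.65 and 15.3 in PL8177, highest in GR41, against 0.587 to 1.87 in enterocyte nuclei. In T cell marker nuclei they were at 7.44, 2.63 and 17.5 in sham and 19.0, 0 and 18.2 in PL8177. Goblet cell markers lay between 5.68 and 8.16 and between 5.13 and 6.44, and those of smooth muscle and interstitial cells between 4.45 and 7.22 and between 5.13 and 7.07. The lists of tuft and enteroendocrine cells, mast cells and basophils, endothelial cells, fibroblasts, and enteric glia and neurons each stayed at or below 2.89 in every library. Neutrophil markers were at 0 in all libraries but GR12, which had 0.0415, 1 UMI.

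The number of T cell nuclei was set against the enterocyte nuclei of the same library. For every 100 enterocyte nuclei the sham libraries had 7.97, 2.30 and 3.81 T cell nuclei, and the PL8177 libraries had 2.17, 2.55 and 4.31. The groups overlapped, with means of 4.69 ± 2.93 and 3.01 ± 1.14 (SD, n = 3 each; exact two-sided permutation test, p = 0.6, where the smallest p that 3 against 3 libraries allow is 0.1). Without GR12 the PL8177 minus sham difference of the means was -0.0478, and without GR13 it was -2.88. Fewer T cells in the tissue, fewer nuclei recovered and more enterocytes cannot be told apart from this ratio.

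The question of which genes differed between PL8177 and sham T cells was put to the 430 genes that passed edgeR's filter on low counts. A single gene was called, CYTB, the mitochondrial gene of cytochrome b in complex III of the respiratory chain, higher in PL8177 (0.233% of the genes tested). No gene was called lower (0%). Before adjustment 23 genes were higher and 4 lower at p below 0.05. This split was 11 and 11 without GR44, 13 and 9 without GR43, 17 and 8 with libraries scaled by their totals alone, and 193 and 318 of 13570 genes with no filter on low counts. DESeq2 and limma voom also called none lower. The filter asks for a minimum count in at least 3 libraries, which few genes reached at these totals. The fit was therefore run again, after these results were seen, on the 3495 genes with at least 30 UMIs over the 6 libraries. It called CYTB and Clca4, both higher (0.0572%), and none lower. Both reached 30 UMIs only through PL8177, where they were high, which limits this count.

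CYTB was the one mitochondrial gene among the rows. Its level in T cell nuclei was 0.871, 2.41 and 0.742 in sham, from 21, 2 and 2 UMIs. In PL8177 it was 41.4, 28.6 and 65.1, from 103, 178 and 138 UMIs. Every PL8177 library stood above every sham library, with a log2 fold change of 5.48 (SE 0.61, edgeR adjusted p = 0.000449) and of 5.27 without GR12 in the fit of 3495 genes. It was not the content of 1 nucleus. CYTB was found in 10 of 22, 34 of 39 and 24 of 35 PL8177 nuclei, and without the nucleus that held the most of it the levels were still 20.6, 24.1 and 56.6, against 0.486 to 1.28 in sham treated in the same manner. Nuclei were also thinned to 300 UMIs, so that depth was equal, which left out 12 sham and 7 PL8177 nuclei with fewer. A UMI was then found in 28.6%, 47.4% and 53.3% of the 21, 38 and 30 PL8177 nuclei and in 5.48%, 7.14% and 0% of the 73, 14 and 21 sham nuclei that remained. In the nuclei with a UMI of the T cell list the CYTB level was 0.836, 1.84 and 0.814 in sham and 38.0, 28.9 and 53.2 in PL8177, and in T cell marker nuclei it was 0.892, 2.63 and 0 in sham and 61.4, 19.3 and 41.0 in PL8177.

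CYTB was also high in the enterocyte nuclei of the PL8177 libraries. Enterocyte nuclei had levels of 1.88, 6.26 and 3.41 in sham and 36.0, 50.5 and 71.8 in PL8177, again without overlap. Their log2 fold change was 3.74 (edgeR adjusted p = 0.217 over 7960 genes), and the T cell minus enterocyte difference of the change was 0.98 (SE 0.51, edgeR adjusted p = 1). Mitochondrial RNA in a nuclear preparation is also a measure of its purity, and its part in the difference was not tested. The authors kept nuclei under 5% mitochondrial reads in all libraries. Ribosomal protein genes, a second measure of RNA from outside the nucleus, overlapped between the groups, at 49.0 to 71.9 in sham and 46.3 to 125 in PL8177. The highest value was that of GR44, which also had the highest CYTB level. The PL8177 minus sham difference of the means was 17.7, but -6.59 without GR44 and 39.65 in T cell marker nuclei.

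**Figure D2:**
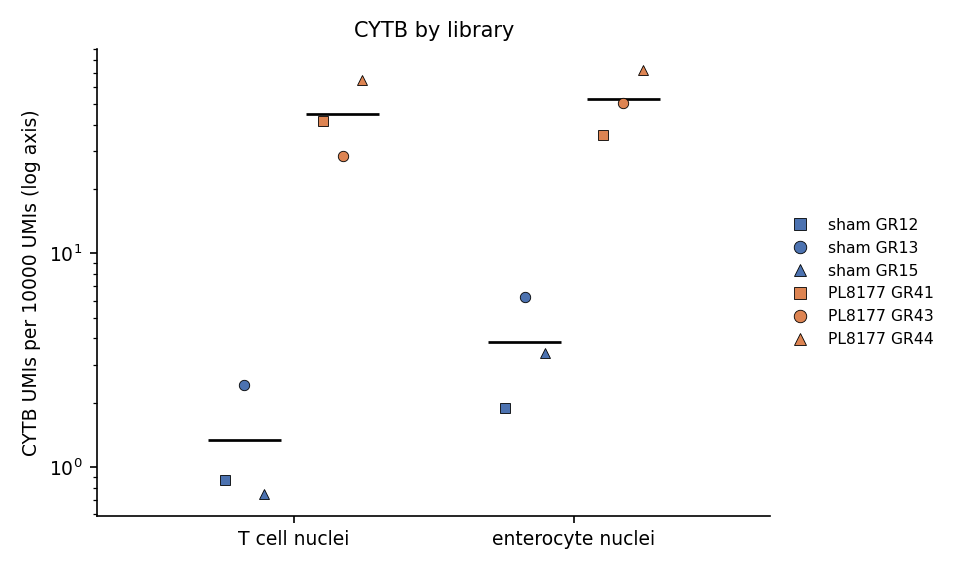
CYTB in UMIs per 10000 UMIs, on a log axis, for T cell and enterocyte nuclei of each library; blue is sham, orange is PL8177 and black lines are arithmetic means of 3 libraries. In both cell types every PL8177 library, from 28.6 upwards, lies above every sham library, up to 6.26.

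In the fit of 3495 genes Clca4 and Tspan1 came next to CYTB in order of p. Clca4, a secreted protein of the calcium-activated chloride channel regulator family made by colon epithelium, had levels of 0.705, 2.41 and 0.371 in sham and 10.1, 6.74 and 3.30 in PL8177. The groups did not overlap (4.64% of all genes had PL8177 above sham), and the log2 fold change was 3.17 (SE 0.59, edgeR adjusted p = 0.00542 over 3495 genes). Clca4 reached 30 UMIs only through PL8177, where it was high. The call was lost without GR12, GR15 or GR43, where the log2 fold change stayed at 2.94, 3.00 and 3.18, with DESeq2 at 3.15, in T cell marker nuclei at 2.63, in thinned nuclei at 3.43 and with no filter on low counts at 2.93. Tspan1, a tetraspanin of epithelial cells, had levels of 1.08, 4.82 and 0.742 in sham and 6.44, 5.13 and 12.3 in PL8177. It did not overlap either, with a log2 fold change of 2.55 (SE 0.57) in the fit of 430 genes that missed the threshold (edgeR adjusted p = 0.157), and passed it there without GR13, with DESeq2 and in nuclei with at least 500 genes. In the fit of 3495 genes it passed without GR13, without GR41 and in nuclei with at least 500 genes, but not with DESeq2.

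Of the enterocyte markers 16 had at least 30 UMIs, 13 of them fitted above 0 and 3 below. Hnf4a was among the 3, at -0.68 (edgeR unadjusted p = 0.179). In the fit of 3495 genes 6 of the 16 were higher at an unadjusted p below 0.05, against 2.52% of all genes, and none was lower, against 1.72%. None passed the adjustment. Their median log2 fold change was 0.70, and 0.67 without GR12, beside 0.01 and 0.20 for all genes. Slc26a3, the chloride and bicarbonate exchanger of the colon surface, had levels of 2.11, 19.3 and 10.8 in sham and 18.1, 21.8 and 35.4 in PL8177, with GR12 far below the others and GR41 below GR13. Its log2 fold change was 1.62 (SE 0.53, edgeR unadjusted p = 0.00387, adjusted p = 0.799), or 0.97 without GR12. In the fit of 430 genes it was 1.504 (SE 0.67, edgeR unadjusted p = 0.0435, adjusted p = 0.692).

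The other 5 of these markers were less abundant. Krt8, a keratin of simple epithelia, was at 0.705, 0 and 1.11 in sham and 1.61, 1.76 and 2.36 in PL8177, the 1 marker of the list whose groups did not overlap (4.64% of all genes had PL8177 above sham), with a log2 fold change of 1.37. Cdh17, the liver-intestine cadherin, was at 1.37, 1.20 and 4.45 in sham and 4.02, 4.97 and 8.96 in PL8177 (log2 fold change 1.46). Car4, a membrane carbonic anhydrase, had a log2 fold change of 2.27, Aqp8, a water channel, of 1.81, and Slc9a3, the sodium and proton exchanger NHE3, of 1.56. Without GR12 the log2 fold change was 1.22 for Krt8, 0.85 for Cdh17, 1.43 for Car4, 0.50 for Aqp8 and 0.32 for Slc9a3. In Car4, Aqp8 and Slc9a3 the level in GR13 lay at or above that of at least 1 PL8177 library.

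Genes at an unadjusted p below 0.05, of which CYTB and Clca4 alone passed the adjustment, were also sorted by the cell type in which their level was higher. In the fit of 3495 genes 88 were higher and 60 lower in PL8177 at an unadjusted p below 0.05, or 72 and 78 when libraries were scaled by their totals alone in place of TMM. Of the 88 higher genes, 72 (81.8%) had a higher mean level in enterocyte nuclei than in T cell nuclei of the 6 libraries, against 33.4% of all 3495 genes. Of the 60 lower genes, 5 (8.33%) did. Without GR12, 38 of the 88 and 22 of the 60 kept their direction at an unadjusted p below 0.05. In T cell marker nuclei, a set chosen partly by low enterocyte marker UMIs, 20 genes were higher and 68 lower. Over all 3495 genes 162 (4.64%) had all 3 PL8177 libraries above all 3 sham libraries and 158 (4.52%) had them below. The part of epithelial RNA in the differences, whose summed level overlapped between the groups, was not tested.

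**Figure D3:**
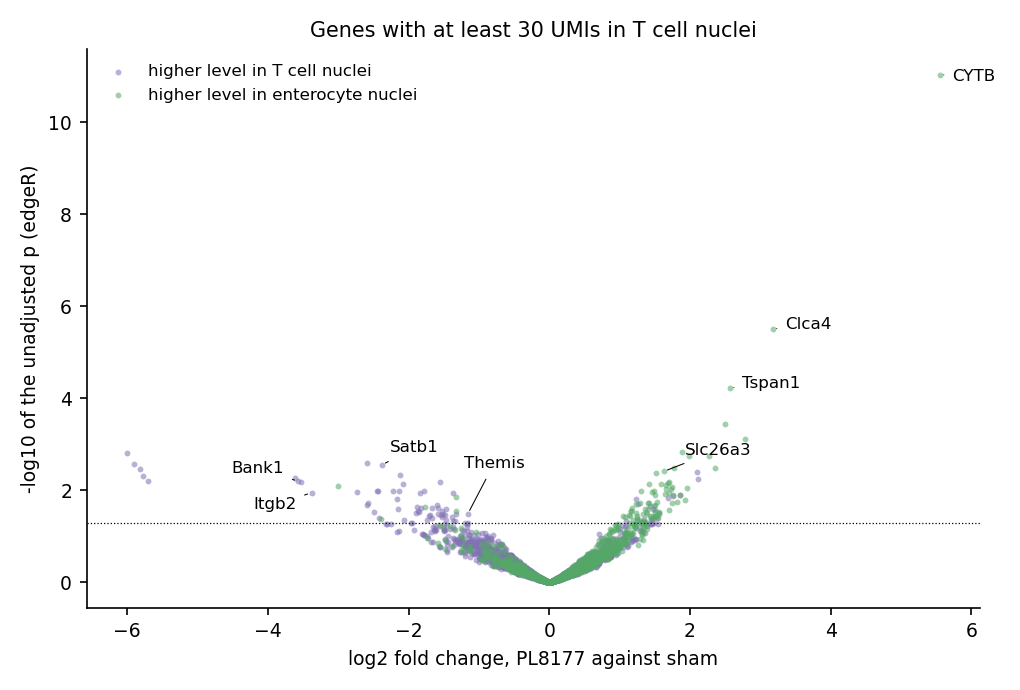
Each point is 1 of the 3495 genes with at least 30 UMIs, with its log2 fold change (PL8177 against sham) and the -log10 of its unadjusted edgeR p; the dotted line marks 0.05. Green genes have a higher mean level in enterocyte nuclei and make up 72 of the 88 genes above the line at right, but 5 of the 60 above it at left. Genes could pass the filter through the group where they were high, so the split is descriptive.

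Genes of T cell identity and of T cell receptor signalling did not pass the adjustment. Of 7 T cell markers with at least 30 UMIs, 1 was lower at an unadjusted p below 0.05, against 1.72% of all genes, and none was higher. That gene was Themis, an adaptor of T cell receptor signalling needed for T cell development, with levels of 7.42, 3.61 and 8.54 in sham and 0.402, 3.69 and 4.71 in PL8177. GR41 was the lowest and GR13 lay within the PL8177 range. In the fit of 430 genes its log2 fold change was -1.21 (SE 0.53, edgeR adjusted p = 0.692), or -0.75 without GR41. The median of the markers was -0.27, and -0.08 without GR12.

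The remaining defining markers overlapped between the groups. Ptprc had levels of 20.6, 6.02 and 4.82 in sham and 12.5, 6.26 and 11.3 in PL8177, with a log2 fold change of -0.20 that turned to 1.01 without GR12, which held 96.5% of its sham UMIs. Skap1 had levels of 15.1, 12.04 and 7.79 in sham and 10.1, 5.29 and 9.43 in PL8177 (log2 fold change -0.51, or -0.11 without GR12). Cd247 had levels of 4.11, 2.41 and 6.68 in sham and 3.22, 3.69 and 4.24 in PL8177. Its log2 fold change was -0.31, with -0.08 without GR15 and -0.44 without GR13. Among 22 receptor signalling genes the fitted value was below 0 in 17 and above 0 in 5, with Themis alone at an unadjusted p below 0.05 (1.72% of all genes were lower), and the list's median was -0.32, or -0.06 without GR12. Its second most abundant gene, Arhgap15, a GTPase-activating protein for Rac of leukocytes, had levels of 19.1, 8.43 and 8.91 in sham and 11.3, 7.22 and 3.77 in PL8177.

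Lineage transcription factors summed to a level of 77.3 in GR12 and 37.7 to 49.4 in the other 5 libraries. Of 16 lineage factors 4 were lower at an unadjusted p below 0.05, Satb1, Bach2, Lef1 and Ikzf2, against 1.72% of all genes, and none was higher, against 2.52%. These 4 passed the filter through sham GR12, where they were high, so their share is not read as a result. The median of the list was -0.25, or 0.02 without GR12. Satb1, a chromatin organiser of developing and naive T cells, had levels of 7.21, 0 and 1.11 in sham and 0, 1.44 and 0 in PL8177, with a log2 fold change of -2.38 (SE 0.75, edgeR adjusted p = 0.793). Without GR12 the value was -0.05. GR12 held 98.3% of its sham UMIs.

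Bach2, a repressor that restrains effector programmes, had levels of 6.05, 0 and 0.371 in sham and 0.804, 0.642 and 0.943 in PL8177. Its log2 fold change of -2.08 turned to 1.38 without GR12. Lef1, a nuclear partner of beta-catenin in naive T cells, had levels of 8.04, 0 and 1.11 in sham and 3.22, 0.642 and 1.89 in PL8177, and its value of -1.38 turned to 1.06. Ikzf2, the factor Helios of regulatory and other T cells, had levels of 3.23, 0 and 1.11 in sham and 1.61, 0.481 and 0.471 in PL8177, with a log2 fold change of -1.47, or -0.01 without GR12. In all 4 genes the groups overlapped, and GR13 was at 0.

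The most abundant factors of the list were Ikzf1 and Ets1. Ikzf1, the lymphoid factor Ikaros, had levels of 12.5, 4.82 and 5.57 in sham and 5.63, 4.49 and 5.19 in PL8177. Ets1, which supports T cell survival, had levels of 8.50, 10.8 and 10.0 in sham and 4.83, 10.3 and 7.54 in PL8177. The regulatory T cell factor Foxp3 was found only in GR12, with 5 UMIs, and 0 UMIs in the PL8177 libraries allow a pooled level of up to 0.277 (3 UMIs of 108387, counting error only), above the 0.181 of the pooled sham nuclei, so a difference could not be detected at this depth.

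Among naive, memory and homing genes 10 had at least 30 UMIs, of which 1 was higher and 3 lower at an unadjusted p below 0.05, against 2.52% and 1.72% of all genes. Lef1 and Bach2 are given above. All 3 lower genes passed the filter through sham, where they were high, so their share is not read as a result. Itgae, the integrin alpha E that holds intraepithelial T cells to E-cadherin, was the gene that stood higher. Its levels were 0.829, 1.20 and 1.48 in sham and 2.41, 1.76 and 4.71 in PL8177, without overlap (4.64% of all genes had PL8177 above sham). Its log2 fold change was 1.48 (SE 0.64, edgeR unadjusted p = 0.0251, adjusted p = 0.999), or 1.03 without GR12. Itgb2, the beta 2 chain of leukocyte integrins, stood lower, with levels of 0.995, 3.61 and 0.742 in sham and 0, 0.161 and 0 in PL8177. It rested on 29 sham UMIs and 1 PL8177 UMI, and the groups did not overlap (4.52% of all genes had PL8177 below sham). The log2 fold change was -3.38 (SE 1.27, edgeR adjusted p = 0.799). It was -3.47 without GR12 but -5.90 without GR43, which held the PL8177 UMI. The median of the list was -0.56 with all libraries and 1.05 without GR12, beside 0.01 and 0.20 for all genes.

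**Figure D4:**
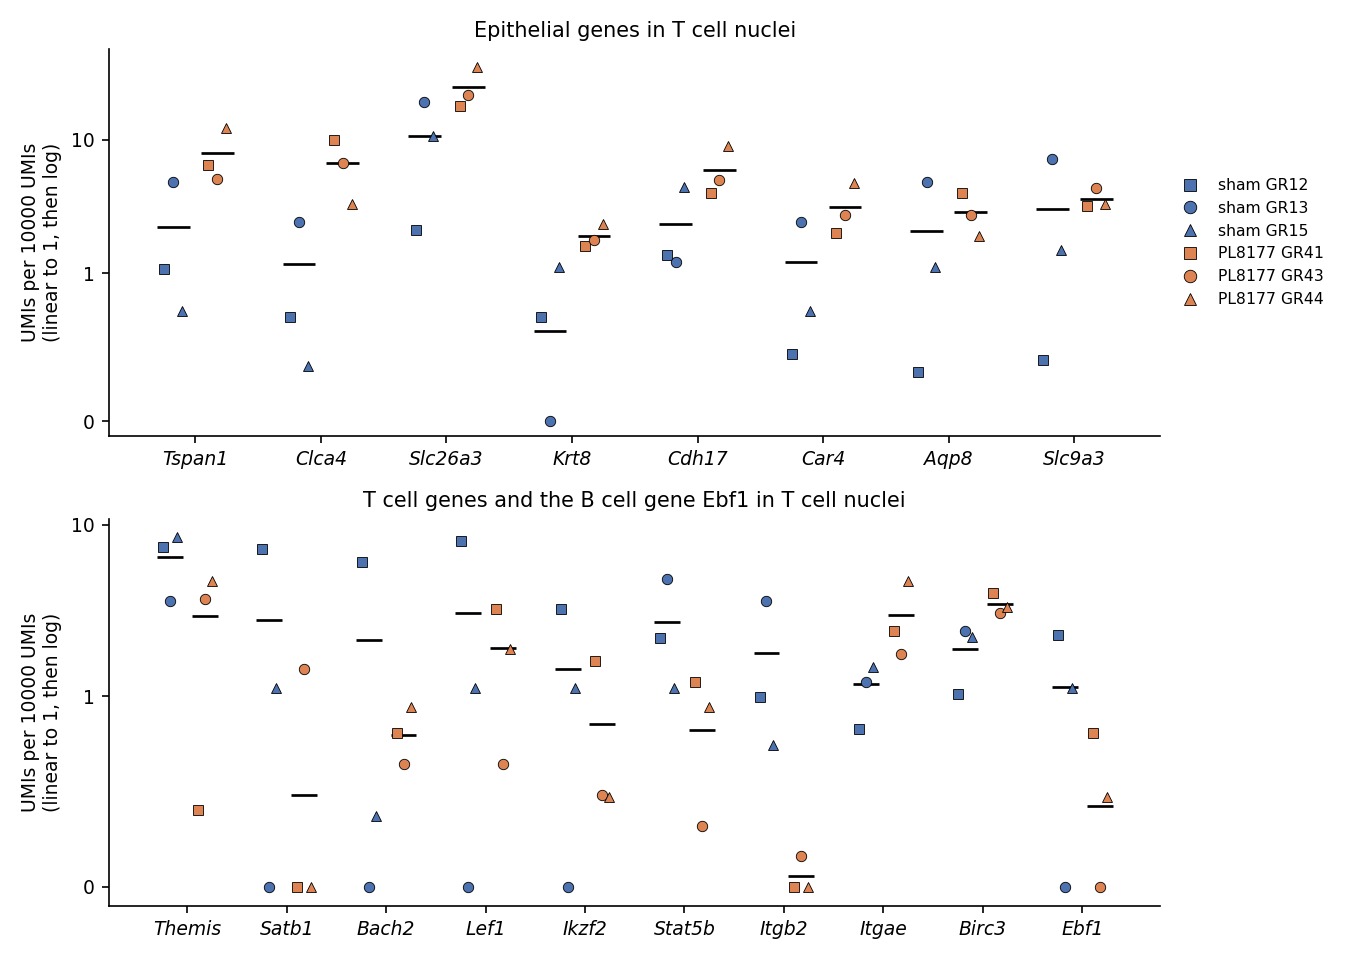
Levels of single genes in T cell nuclei by library, in UMIs per 10000 UMIs, linear up to 1 and logarithmic above; blue is sham, orange is PL8177, and black lines are arithmetic means of 3 libraries. In the upper panel the sham square, GR12, is among the lowest points of most epithelial genes. In the lower panel the same square is the highest point of Satb1, Bach2, Lef1, Ikzf2 and Ebf1, for which GR13 is at 0.

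Receptors and secreted factors were thinly covered. Of 6 costimulatory and inhibitory receptors with at least 30 UMIs, Cd27, a costimulatory receptor of the TNF receptor family, was lower at an unadjusted p below 0.05, against 1.72% of all genes. It had 36, 0 and 1 UMIs in sham and none in PL8177. It thus passed the filter through sham alone and could only come out lower, so this share is not read as a result. The pooled sham level of 1.34 lay above the 0.277 that 0 UMIs allow in PL8177, but without GR12 the sham count was 1 UMI. Tox, a factor of exhausted and resident T cells, had levels of 6.38, 4.82 and 4.45 in sham and 2.01, 6.10 and 3.77 in PL8177. Icos, an inducible costimulator, had 30, 0 and 0 UMIs in sham and 6, 11 and 0 in PL8177.

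Cytotoxic genes had 3 members with at least 30 UMIs, and none was at an unadjusted p below 0.05. Klri1, a killer lectin-like receptor, had levels of 1.91, 8.43 and 5.20 in sham and 1.21, 3.85 and 1.42 in PL8177. Gzma, the granzyme A of killer cells, had levels of 0.995, 0 and 2.97 in sham and 0, 1.60 and 2.36 in PL8177. Of 11 measured cytokines and chemokines 1 reached 30 UMIs, the regulatory cytokine Tgfb1, with 20, 1 and 5 UMIs in sham and 4, 3 and 0 in PL8177. Cd40lg, the T cell signal to B cells, had 8, 0 and 0 UMIs in sham and 2, 0 and 0 in PL8177.

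Of 17 cytokine receptor and JAK-STAT genes 1 was lower at an unadjusted p below 0.05, against 1.72% of all genes. It was Stat5b, which carries interleukin 2 and interleukin 7 signals. Stat5b passed the filter through sham, where it was higher, so this share is not read as a result. Its levels were 2.20, 4.82 and 1.11 in sham and 1.21, 0.321 and 0.943 in PL8177, with GR15 within the PL8177 range, and its log2 fold change was -1.58 (SE 0.71, edgeR adjusted p = 0.999), or -0.93 without GR43 and -0.91 in T cell marker nuclei. Jak1, the kinase shared by many of these receptors, had levels of 6.88, 3.61 and 4.45 in sham and 5.23, 3.85 and 5.66 in PL8177. The median of the list was -0.13, or 0.30 without GR12.

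Interferon response genes varied between libraries of 1 treatment more than between treatments. None of 15 members with at least 30 UMIs was at an unadjusted p below 0.05, with 8 fitted above 0 and 7 below and a median of 0.05, or -0.36 without GR12. Their summed level was 27.9, 111 and 42.7 in sham and 34.2, 32.6 and 65.5 in PL8177 T cell nuclei. Enterocyte nuclei had 20.5, 105 and 31.1 in sham and 18.7, 18.9 and 69.9 in PL8177, so GR13 was the highest and GR44 the second highest library in both cell types. Rnf213, an interferon-induced ubiquitin ligase and the most abundant member, had levels of 2.07, 34.9 and 1.48 in sham and 6.84, 4.81 and 8.49 in PL8177.

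Samd9 and Herc6 are interferon-induced genes. The study names them among T cell genes lower in sham and in PL8177 than in placebo, a contrast not made here. Samd9 had 2, 1 and 1 UMIs in sham and 0, 6 and 0 in PL8177, too few for the test. Herc6 had 12, 4 and 4 UMIs in sham and 4, 2 and 6 in PL8177, levels of 0.497, 4.82 and 1.48 and of 1.61, 0.321 and 2.83, with a log2 fold change of 0.29 (SE 0.81, edgeR adjusted p = 0.999), or -0.83 without GR12. Irf2, an antagonist of interferon activation, was the 1 member whose groups did not overlap, against 4.52% of all genes with PL8177 below sham. Its levels were 2.57, 2.41 and 4.08 in sham and 0.804, 1.93 and 0.471 in PL8177 (edgeR unadjusted p = 0.0624).

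Of 13 TNF and NF-kB response genes 1 was higher at an unadjusted p below 0.05, against 2.52% of all genes, and none was lower, against 1.72%. Birc3, an inhibitor of apoptosis induced by NF-kB, had levels of 1.04, 2.41 and 2.23 in sham and 4.02, 3.05 and 3.30 in PL8177. The groups did not overlap, beside 4.64% of all genes with PL8177 above sham. The log2 fold change was 1.25 (SE 0.59, edgeR adjusted p = 0.999), or 0.67 without GR12. Nfkb1, a subunit of the factor itself, had levels of 3.65, 1.20 and 1.85 in sham and 8.04, 0.802 and 1.42 in PL8177, with GR41 alone high. Litaf, an endosomal protein induced by lipopolysaccharide, had levels of 2.03, 2.41 and 4.08 in sham and 4.83, 3.05 and 4.71 in PL8177.

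Immediate early genes and glucocorticoid response genes each had 5 members with at least 30 UMIs. All 5 of each were fitted above 0 and none was at an unadjusted p below 0.05. Klf6, a zinc finger factor, had the smallest p of the first list (edgeR unadjusted p = 0.053), with levels of 0.954, 2.41 and 0 in sham and 3.22, 1.60 and 1.89 in PL8177. Errfi1, an inhibitor of epidermal growth factor receptor signalling, had the smallest of the second, with 0.995, 2.41 and 0.742 in sham and 2.82, 1.60 and 1.89 in PL8177. The medians were 0.24 and 0.36, and -0.02 and 0.84 without GR12.

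The pathway of the drug target showed no called gene. Of 17 genes of melanocortin and cyclic AMP signalling with at least 30 UMIs, 13 were fitted below 0 and 4 above, with a median of -0.17, or 0.15 without GR12, and none was at an unadjusted p below 0.05. Pde3b, a phosphodiesterase that breaks down cyclic AMP, had levels of 3.86, 3.61 and 5.57 in sham and 2.82, 2.25 and 1.42 in PL8177. All PL8177 libraries lay below all sham libraries (edgeR unadjusted p = 0.0844), as did those of Adcy6, an adenylyl cyclase, beside 4.52% of all genes. Akap13, an anchoring protein of protein kinase A, had levels of 9.91, 9.63 and 8.54 in sham and 10.9, 5.94 and 8.49 in PL8177. Rapgef6, an exchange factor for Rap GTPases, had levels of 11.5, 2.41 and 11.1 in sham and 6.03, 5.78 and 5.66 in PL8177.

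Cell cycle genes had 13 members with at least 30 UMIs, 10 fitted below 0 and 3 above, and none at an unadjusted p below 0.05. Mki67, the proliferation marker Ki-67, had 35, 1 and 6 UMIs in sham and 2, 4 and 2 in PL8177 (edgeR unadjusted p = 0.149). Its levels were 1.45, 1.20 and 2.23 and 0.804, 0.642 and 0.943 without overlap, beside 4.52% of all genes with PL8177 below sham. Mki67 passed the filter through sham, where it was high, and was picked after its values were seen, so this is not read as a result. Smc4, a condensin subunit, had levels of 3.40, 0 and 1.85 in sham and 2.01, 1.76 and 5.19 in PL8177. The median of the list was -0.40, but 0.66 without GR12.

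**Figure D5:**
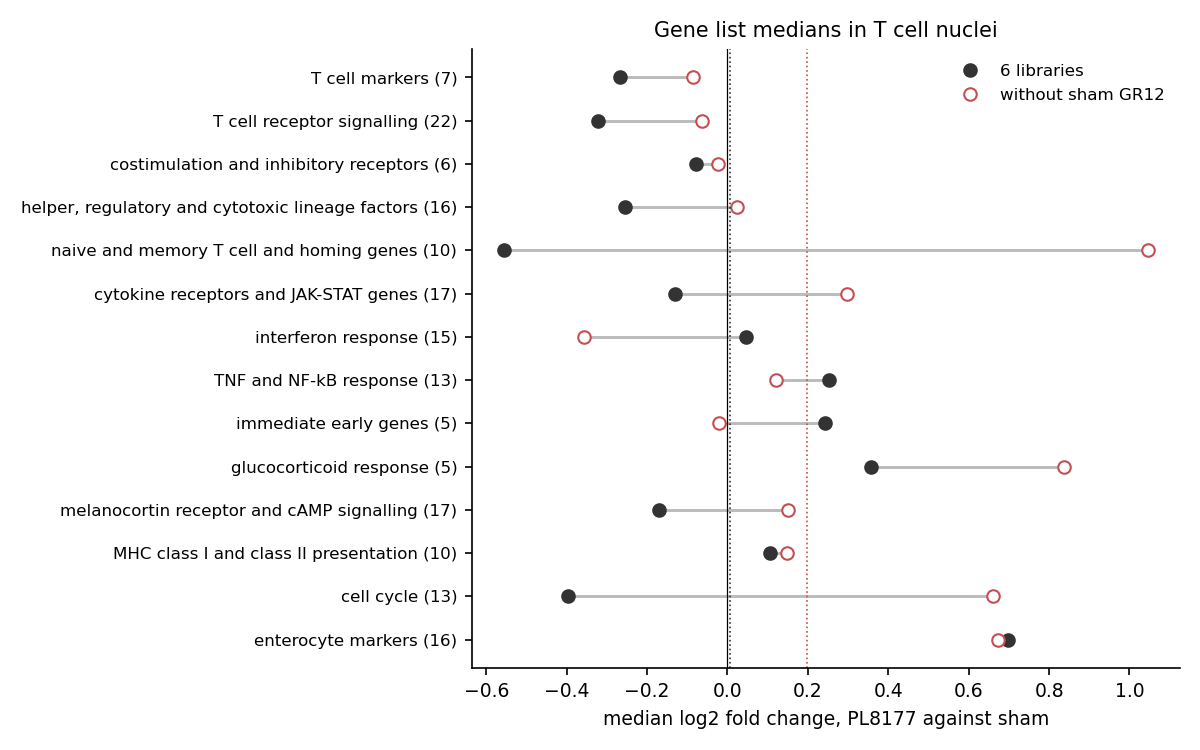
Median log2 fold change (PL8177 against sham) of each gene list with at least 5 members of at least 30 UMIs (number of members in brackets), over 6 libraries (filled) and without sham GR12 (open); dotted lines mark the medians of all genes, 0.01 and 0.20. The medians of naive, memory and homing genes (-0.56 and 1.05), cell cycle genes (-0.40 and 0.66), lineage factors, cytokine receptor and JAK-STAT genes, cyclic AMP genes, immediate early genes and interferon genes change sign without GR12, while that of enterocyte markers (0.70 and 0.67) does not.

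Ebf1 and Bank1, a transcription factor and an adaptor of B cells, were lower at an unadjusted p below 0.05, against 1.72% of all genes. Both passed the filter through sham GR12, where they were high, so this share is not read as a result. Ebf1 had 55, 0 and 3 UMIs in sham and 2, 0 and 1 in PL8177 (log2 fold change -2.44), and Bank1 had 49, 0 and 0 in sham and 1, 0 and 0 in PL8177 (log2 fold change -3.56). Without GR12 the values were -1.26 and 1.69, the latter from 1 UMI in all. Wdfy4, a protein of cross-presenting dendritic cells that B cells also make, was higher (log2 fold change 1.25, edgeR unadjusted p = 0.0443, adjusted p = 0.999). Its levels were 1.74, 2.41 and 0.742 in sham and 7.24, 2.09 and 1.89 in PL8177. GR41 carried most of that difference, with 10 of its 18 UMIs in 1 nucleus. Of all genes 2.52% were higher at an unadjusted p below 0.05. The other of 2 macrophage and dendritic cell markers with at least 30 UMIs, Csf1r, was fitted lower, at -1.67 (edgeR unadjusted p = 0.079).

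Genes of antigen presentation had 10 members with at least 30 UMIs, none at an unadjusted p below 0.05. Their summed level was 28.1, 90.3 and 33.0 in sham and 30.6, 25.4 and 95.7 in PL8177, again highest in GR13 and GR44. The class I genes RT1-A1 and RT1-A2 are near-identical copies, so reads could be split between them. RT1-A1 had levels of 5.93, 22.9 and 15.2 in sham and 4.42, 4.17 and 28.3 in PL8177, and RT1-A2 had 4.44, 36.1 and 6.31 and 6.03, 4.33 and 25.9.

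Whether the change in T cell nuclei differed from that in enterocyte nuclei was tested as an interaction over 7448 genes, with the library as a block. There were 4 genes called with a higher change in T cell nuclei (0.0537%) and none with a lower one (0%), while 132 were higher and 139 lower at an unadjusted p below 0.05. These counts were 200 and 63 without GR12, 179 and 67 without GR44, and 67 and 157 in T cell marker nuclei. The 4 were Slfn4, RT1-A2, Slc26a3 and Clca4. Slfn4, a member of the Schlafen family of immune regulators, had T cell levels of 3.40, 16.9 and 5.57 in sham and 4.83, 22.8 and 10.8 in PL8177, and enterocyte levels of 0.852, 4.92 and 0.404 and of 0.274, 0.228 and 0.585. Its difference of the change was 2.92 (SE 0.48, edgeR adjusted p = 1.17e-05). Slc26a3 differed by 1.84 (SE 0.43, adjusted p = 0.0362), with enterocyte levels of 86.1, 145 and 74.3 in sham and 80.1, 85.3 and 121 in PL8177 and an enterocyte log2 fold change of -0.13 (edgeR adjusted p = 0.973). Slc26a3 was not called without GR12, GR41 or GR44, where it differed by 1.12, 1.96 and 1.98. Clca4 differed by 2.49 and was not called without GR12, GR41, GR44 or GR15, at 2.26, 2.65, 2.62 and 2.40. None of the 4 was called without GR43, where Slfn4, RT1-A2, Slc26a3 and Clca4 differed by 1.94, 1.99, 1.95 and 2.45. Nor was any called without the library block, at 3.70, 1.65, 1.72 and 2.32 in the same order, or in T cell marker nuclei, at 2.50, 1.75, 0.38 and 1.91, where Slc26a3 is among the markers that chose the set.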

How the data were processed

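The authors isolated nuclei from flash-frozen colon, made 10x Genomics 3′ libraries and counted them with Cell Ranger 6.0.1 on Rnor 6.0 with introns. The deposited values are whole UMI counts per gene and nucleus, 1 table per cell type and treatment, with the cell types the authors assigned in Seurat. They had removed artifacts with CellBender and dropped nuclei that had under 200 genes or 5% or more mitochondrial reads. Here the 4 sham and PL8177 tables were used and the placebo tables were not. Counts were summed per library tag and fitted in R 4.3.3 with the quasi-likelihood functions of edgeR 4.0.16, after filterByExpr and TMM scaling. The interaction was fitted over T cell and enterocyte sums with library as a block. DESeq2 1.42.0 and limma 3.58.1 were alternatives, beside other scalings, no filter, nuclei of 500 or more genes, nuclei thinned to 300 UMIs, each library left out, and T cell marker nuclei, which hold 1 or more T cell marker UMIs and enterocyte marker UMIs in equal or lower number. Python 3.11.15 with pandas 2.3.3 did the rest. The fits were also run on simulated data, the outcome of which is not reported here.

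Named genes were called genes, at most 10 per direction with an absolute log2 fold change above 1.5 and no overlap between groups by smallest p (CYTB and Tspan1), the markers, the study's Samd9 and Herc6, and in each list the 2 most abundant and the smallest-p members of the 30-UMI fit. Of these a selection is printed. Members counted at an unadjusted p below 0.05, and Foxp3, Mki67 and Adcy6, were named after their values were seen. The members and the 26 lists were chosen with earlier results of these data known. Genes without a row were not analysed here. Counting limits cover counting error only.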

Additional observations from a re-analysis of the deposited data

Results flagged for a closer look

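For 4 genes the PL8177 against sham change in T cell nuclei differed from that in enterocyte nuclei of the same libraries by edgeR's interaction test. The T cell minus enterocyte difference of the log2 fold change was 2.92 for Slfn4 (adjusted p = 1.17e-05), 2.59 for RT1-A2 (adjusted p = 3.83e-05), 1.84 for Slc26a3 (adjusted p = 0.0362) and 2.49 for Clca4 (adjusted p = 0.0362). For RT1-A2 the enterocyte levels differed within PL8177, at 3.89, 0.708 and 23.1 against 22.2, 37.1 and 26.0 in sham, and the T cell levels overlapped. Each call was lost under some alternatives. Over those that lost it the difference ran from 1.94 to 3.70 for Slfn4, from 1.65 to 1.99 for RT1-A2, from 0.38 in T cell marker nuclei, which Slc26a3 itself helped to choose, to 1.98 for Slc26a3, and from 1.91 to 2.65 for Clca4.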

How the results depend on the processing

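CYTB was called under each of the 15 alternatives of the fit of 430 genes and each of the 12 of the fit of 3495 genes. The count of called genes, 1 in the fit of 430, was 2 with DESeq2, 3 in nuclei with at least 500 genes, 2 with the 30-UMI filter, and 1 to 3 with 1 library left out. With at least 30 UMIs, chosen after seeing the data, it was 2, but 1 with DESeq2, in T cell marker nuclei and in thinned nuclei, and 1 to 3 with 1 library left out. The interaction gave 4 genes, 0 without the library block and in T cell marker nuclei, and 0 to 6 with 1 library left out. Of 342 fold changes of 24 named genes under an alternative, 335 kept their direction. Ptprc turned to 0.32 in T cell marker nuclei and, in the 30-UMI fit without GR12, to 1.02. With 1 library left out Ptprc ran from -0.58 (without GR15) to 1.01 (without GR12), with 0.04 without GR43, Bach2 from -2.48 to 1.38, Lef1 from -2.02 to 1.06 and Bank1 from -6.32 to 1.69, each highest without GR12. Causes were not tested. No paired analysis was possible because the names pair no libraries across treatments. With 3 libraries per treatment and 1 UMI at a level of 1.20 in GR13, values of low genes are imprecise.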
